A study of Mus musculus with 10 samples.

Results

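The response of mast cells to stem cell factor (SCF) in the absence of TGF-β was measured in 4 of the series' 10 libraries, chosen by their treatment labels: 2 libraries of cells stimulated with 100 ng/mL SCF for 72 h and 2 of cells held in interleukin 3 (IL-3) alone. All were bone marrow-derived cultured mast cells (BMMCs), grown out of wild-type C57BL/6 mouse marrow over 6 to 8 weeks in IL-3, so that both groups had been raised in IL-3; no transgene or deletion is named. The labels give 6 to 8 weeks also as the age. The IL-3 dose is 5 ng/mL in one label (growth) and 10 ng/mL in another (source); the labels give no time for the IL-3 libraries and do not say whether IL-3 stayed in the medium with SCF. The other 6 libraries came from cells given TGF-β with SCF (4 libraries) or TGF-β without it (2 libraries) and serve here only to estimate the spread between replicates and as a second SCF contrast. Whether replicate libraries were separate cultures is not stated, and p-values therefore reflect the spread of these libraries, which may be technical.

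SCF is the ligand of the receptor tyrosine kinase KIT, which mast cells carry throughout their life and need for survival, growth and maturation in tissues. KIT signals through the PI3K-AKT and RAS-ERK pathways, whereas the IL-3 receptor signals mainly through JAK2 and STAT5. The question put to these libraries was which parts of the cell's programme, from division and lipid synthesis to granules and receptors, stood higher or lower after 72 h with the KIT ligand.

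Reads counted on genes were 2042178 and 1633352 in the SCF libraries, against 1942679 and 1539696 in the IL-3 libraries, and levels are given as CPM, read counts divided by the library's TMM-scaled total. A level of 3 counts was 1.5 to 2.11 CPM. Replicates had a Pearson correlation of log CPM of 0.964 (SCF) and 0.955 (IL-3) across genes. Loci in satellite repeats took 3.07% and 3.16% of gene counts with SCF, against 5.93% and 9.39% with IL-3 alone. A fit without ribosomal RNA and satellite loci gave 1018 genes past the threshold described below, against 1031 with all loci. Reads aligned to more than 1 place made up 37.2% and 37.6% of all counted reads with SCF, against 42.7% and 48.8% with IL-3 alone. The part of this last difference in the results was not tested. Mast cell markers were abundant in every library. The IgE receptor alpha chain Fcer1a had 11020.0 and 10148 CPM in the SCF libraries, against 10479 and 10385 CPM in the IL-3 libraries, and Kit had 4594 and 3951 CPM in the SCF libraries, against 4569 and 5072 CPM in the IL-3 libraries, so the levels of both overlapped between groups. Of 12 neutrophil, 10 lymphocyte and 8 fibroblast markers none reached the level needed for testing, and S100a8, Elane, Cd3e and Col1a1 had 0 counts in all 4 libraries. Among 15 macrophage markers, C1qa and Mrc1 had 0 counts in all 4 libraries, while the fractalkine receptor Cx3cr1 had 168 and 75.01 CPM in the SCF libraries, against 358 and 394 CPM in the IL-3 libraries (log2 fold change -1.61 ± 0.25, adjusted p = 7.96e-04). Summed over the macrophage list the level was 209.8 and 106 CPM in the SCF libraries and 403 and 434 CPM in the IL-3 libraries, most of it from Cx3cr1. Cd68, a lysosomal protein often used as a macrophage marker, was not in this list and was higher with SCF. It had 50.1 and 65.6 CPM in the SCF libraries, against 1.55 and 4.91 CPM in the IL-3 libraries. In such bulk samples, fewer cells of a type and less RNA per cell cannot be told apart.

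Of 11247 genes tested with edgeR's quasi-likelihood test, 642 were higher and 389 lower in SCF than in IL-3 libraries at a Benjamini-Hochberg adjusted p under 0.05, which is 9.17% of all genes tested (5.71% higher, 3.46% lower). Of the falls 14 were loci of ribosomal RNA or satellite repeats, and of the rises 0. Of the 642 rises 361 were under 2-fold, as were 164 of the 389 falls (median log2 fold change 0.90 for the rises and -1.11 for the falls), and 52 genes passed a test against a 2-fold threshold. For all 1031 called genes the values of the groups did not overlap, as was the case for 53.4% of all tested genes. The median log2 fold change of all tested genes was -0.02. Without SCF replicate 2, 316 genes were called, and without IL-3 replicate 2, 237 genes; without SCF replicate 1 and IL-3 replicate 1 the counts were 788 and 741. The genes that rose were 96.0% protein coding with a median exonic length of 3486 bases, the genes that fell 88.2% with 4735 bases, and all tested genes 89.3% with 4295 bases. The plot of gene lists gives the members of 24 of the 58 lists described here; a list is described by the number of members past the threshold and its median, read against those shares of all genes. In most lists with no call in a direction, no tested member went that way at an unadjusted p under 0.05 with edgeR and none was called that way by DESeq2 or limma-voom. The exceptions were 7 mitochondrial ribosomal protein genes, 1 immediate early gene and 1 antigen presentation gene that were higher at that unadjusted p, and 5 cytokine receptors, 3 antigen presentation genes and 1 gene each of sterol sensing, fatty acid oxidation, glycolysis, the proteasome and the immediate early list that were lower. Of the lists with 0 calls, limma-voom called 1 immediate early gene lower and DESeq2 called none.

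**Figure D1:**
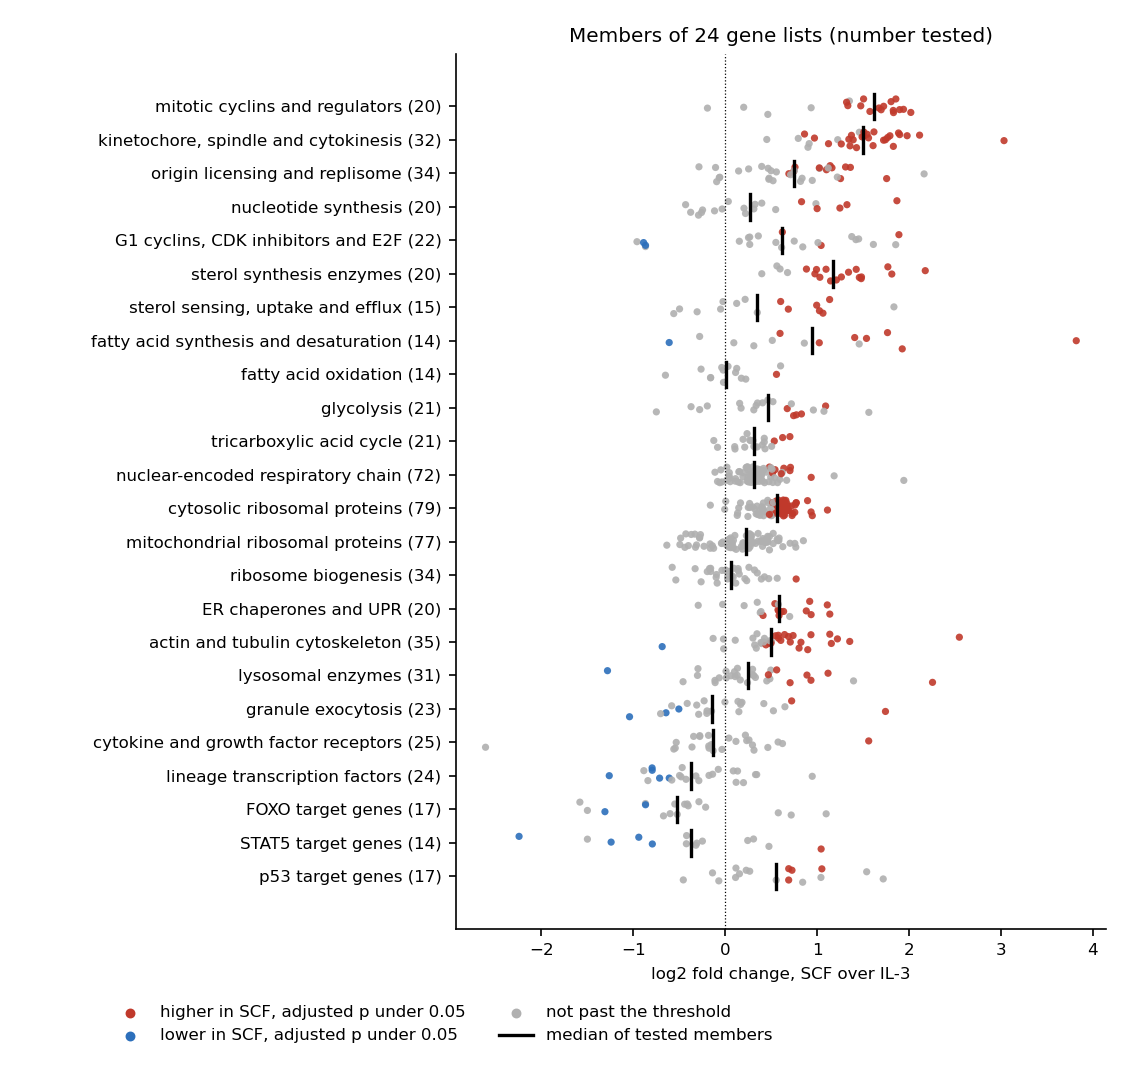
Log2 fold change of SCF over IL-3 (horizontal axis) for each tested member of 24 gene lists, with the number tested in brackets. Each point is a gene, red where higher and blue where lower at an adjusted p under 0.05, and the black bar is the median of the list. Mitotic and sterol synthesis genes sit furthest to the right, with medians of 1.62 and 1.18, while the median of FOXO target genes is -0.52 (-0.27 without IL-3 replicate 2).

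Genes of mitosis were higher after SCF. Of 20 tested mitotic cyclins and regulators 15 rose and 0 fell, with a median log2 fold change of 1.62, and of 32 genes of the kinetochore, spindle and cytokinesis 26 rose and 0 fell, with a median of 1.5. Cyclin B2 (Ccnb2), which with Cdk1 drives entry into mitosis, had 95.6 and 80.05 CPM in the SCF libraries, against 29.02 and 12.6 CPM in the IL-3 libraries (log2 fold change 2.02 ± 0.25, adjusted p = 1.06e-04). Cdk1 itself had 67.6 and 88.9 CPM in the SCF libraries, against 36.8 and 9.12 CPM in the IL-3 libraries (log2 fold change 1.67 ± 0.35, adjusted p = 0.00718). Both SCF libraries lay above both IL-3 libraries for these genes, and IL-3 replicate 2 lay well below IL-3 replicate 1. Cdc20, which activates the anaphase-promoting complex, had 63.1 and 73.7 CPM with SCF and 23.3 and 11.9 CPM with IL-3 alone (log2 fold change 1.90 ± 0.25, adjusted p = 1.79e-04). For Hmmr, a spindle protein, the levels were 32.04 and 41.6 CPM with SCF and 11.4 and 7.02 CPM with IL-3 alone (log2 fold change 1.94 ± 0.30, adjusted p = 7.48e-04). Aurkb, the kinase of the chromosomal passenger complex, reached 35.5 and 49.2 CPM with SCF and 16.6 and 7.72 CPM with IL-3 alone (log2 fold change 1.72 ± 0.30, adjusted p = 0.00161), and the groups again did not overlap. The spindle checkpoint kinase Bub1b had 43.1 and 47.3 CPM with SCF and 22.8 and 7.02 CPM with IL-3 alone (log2 fold change 1.51 ± 0.32, adjusted p = 0.00662). Racgap1, a scaffold of the central spindle, had 81.6 and 92.03 CPM with SCF and 30.6 and 11.2 CPM with IL-3 alone (log2 fold change 1.98 ± 0.29, adjusted p = 4.23e-04). The microtubule depolymerase Kif2c, at 17.5 and 22.7 CPM with SCF and 3.11 and 1.40 CPM with IL-3 alone, had the highest fold change of its list (log2 fold change 3.03 ± 0.43, adjusted p = 2.95e-04); its IL-3 values were at or near the level of 3 counts. Cdk1 (adjusted p = 0.0676) missed the threshold without SCF replicate 2. Cdk1 (adjusted p = 0.0783) and Bub1b (0.0704) missed the threshold without IL-3 replicate 2. Ccnb2 (log2 fold change 2.80), Cdk1 (3.08), Cdc20 (2.51), Aurkb (2.43), Bub1b (2.67), Racgap1 (2.94) and Kif2c (3.76) moved by over 1.5 times in fold without IL-3 replicate 1. Cdk1 (log2 fold change 1.08) moved by over 1.5 times in fold without IL-3 replicate 2. Ccnb2, Cdc20, Hmmr, Aurkb, Racgap1 and Kif2c stayed past the threshold whichever of the 4 libraries was left out. For mitotic cyclins and regulators, the number higher was 9 without SCF replicate 2 and 8 without IL-3 replicate 2. The median of mitotic cyclins and regulators was 2.55 without IL-3 replicate 1. For kinetochore, spindle and cytokinesis genes, the number higher was 10 without SCF replicate 2 and 6 without IL-3 replicate 2. The median of kinetochore, spindle and cytokinesis genes was 2.63 without IL-3 replicate 1 and 0.97 without IL-3 replicate 2.

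The IL-3 libraries differed from each other in these mitotic genes more than the SCF libraries did, as the plot of summed list levels shows. Mitotic cyclins and regulators summed to 1010.2 and 1043 CPM in the SCF libraries and 515 and 199 CPM in the IL-3 libraries, and kinetochore, spindle and cytokinesis genes to 1138 and 1355 CPM in the SCF libraries and 635 and 248 CPM in the IL-3 libraries. Relative to the mean of the IL-3 libraries the mitotic cyclins and regulators stood at 283% and 292% with SCF, against 144% and 55.8% with IL-3 alone. The SCF libraries lay above both IL-3 libraries in each of these sums. The part of this difference between IL-3 libraries in the calls was not tested beyond leaving out each library.

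**Figure D2:**
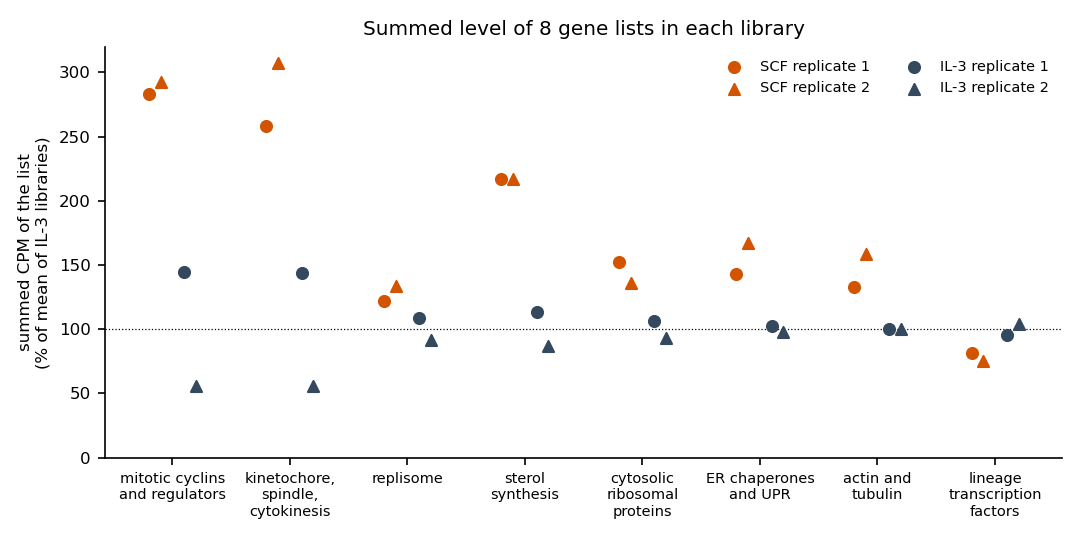
Summed CPM of 8 gene lists in each of the 4 libraries, as a percent of the mean of the IL-3 libraries (vertical axis, from 0); orange marks are SCF libraries, dark marks IL-3 libraries, circles replicate 1 and triangles replicate 2. The mitotic cyclins and regulators lie at 283% and 292% with SCF, against 144% and 55.8% with IL-3 alone, and both libraries of SCF lie above both of IL-3 in every list but the lineage transcription factors.

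The lists of DNA replication had lower medians and fewer calls than those of mitosis. Of 34 tested genes of origin licensing and the replisome 11 rose and 0 fell (median log2 fold change 0.75), and of 20 genes of nucleotide synthesis 5 rose and 0 fell (median 0.27). Whether the lists differ from each other was not tested. Mcm2, a subunit of the replicative helicase, had 109.6 and 139 CPM in the SCF libraries, against 109.9 and 65.3 CPM in the IL-3 libraries, so that its groups overlapped (log2 fold change 0.48 ± 0.24, adjusted p = 0.239). Its partner Mcm3 had 238 and 276 CPM in the SCF libraries, against 177 and 126 CPM in the IL-3 libraries (log2 fold change 0.75 ± 0.18, adjusted p = 0.0176). Cdc45, which joins the helicase when origins fire, had 30.5 and 34.04 CPM with SCF and 11.4 and 7.02 CPM with IL-3 alone (log2 fold change 1.76 ± 0.30, adjusted p = 0.00161); neither Cdc45 nor Mcm3 overlapped between groups. Rrm2, the regulated subunit of ribonucleotide reductase, had 116 and 154 CPM with SCF and 53.4 and 16.8 CPM with IL-3 alone (log2 fold change 1.87 ± 0.32, adjusted p = 0.00167). Thymidylate synthase (Tyms), which makes the DNA base precursor dTMP, had 81.1 and 110.3 CPM with SCF and 59.6 and 46.3 CPM with IL-3 alone (log2 fold change 0.83 ± 0.21, adjusted p = 0.0213), again without overlap. Mcm3 (adjusted p = 0.141) and Tyms (0.217) missed the threshold without SCF replicate 2. Mcm3 (adjusted p = 0.225) and Tyms (0.208) missed the threshold without IL-3 replicate 2. Rrm2 (log2 fold change 2.99) moved by over 1.5 times in fold without IL-3 replicate 1. Cdc45 and Rrm2 stayed past the threshold whichever of the 4 libraries was left out. For replisome genes, the number higher was 7 without SCF replicate 1, 1 without SCF replicate 2 and 1 without IL-3 replicate 2. For nucleotide synthesis genes, the number higher was 2 without SCF replicate 2 and 1 without IL-3 replicate 2. The median of nucleotide synthesis genes was 0.07 without SCF replicate 2, 0.41 without IL-3 replicate 1 and 0.07 without IL-3 replicate 2.

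Upstream of replication, the G1 genes were called in both directions, though most of the list lay higher. A positive log2 fold change was found in 18 of the 22 tested. The median was 0.62 (0.45 to 0.89 with 1 of the 4 libraries left out). Of 22 tested G1 cyclins, CDK inhibitors, pocket proteins and E2F factors, 3 rose (Ccnd2, Ccnd3 and E2f3) and 2 fell (Rb1 and Rbl2). Cyclin D2 (Ccnd2), a partner of CDK4 and CDK6, had 1005 and 1256 CPM in the SCF libraries, against 534 and 561 CPM in the IL-3 libraries (log2 fold change 1.04 ± 0.15, adjusted p = 2.82e-04). Cyclin D3 (Ccnd3) had 700.3 and 826 CPM with SCF and 489.7 and 501 CPM with IL-3 alone (log2 fold change 0.62 ± 0.13, adjusted p = 0.00787). Rb1, the retinoblastoma protein that holds E2F factors in check, had 176 and 136 CPM in the SCF libraries, against 255 and 325 CPM in the IL-3 libraries (log2 fold change -0.89 ± 0.20, adjusted p = 0.0117). Its relative Rbl2 (p130), abundant in resting cells, had 102 and 71.2 CPM with SCF and 155 and 163 CPM with IL-3 alone (log2 fold change -0.86 ± 0.19, adjusted p = 0.00855). For these 4 genes no SCF library overlapped an IL-3 library. The CDK inhibitor Cdkn1b (p27) had 20.02 and 11.98 CPM in the SCF libraries, against 19.7 and 41.4 CPM in the IL-3 libraries, with SCF replicate 1 inside the range of the IL-3 libraries (log2 fold change -0.87 ± 0.41, adjusted p = 0.209). Ccnd3 (adjusted p = 0.0996), Rb1 (0.137) and Rbl2 (0.124) missed the threshold without SCF replicate 2. Ccnd3 (adjusted p = 0.0681), Rb1 (0.165) and Rbl2 (0.0786) missed the threshold without IL-3 replicate 2. Ccnd2 stayed past the threshold whichever of the 4 libraries was left out. G1 genes gave 1 to 8 higher and 0 to 2 lower as each of the 4 libraries was left out, with moves of over 1.5 times without SCF replicate 2, IL-3 replicate 1 and IL-3 replicate 2.

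The promoters of the mitotic list are shown for the 2 risen members with the largest fold change that hold both a cell cycle homology region, TTTGAA, and a CCAAT box, motifs known from promoters active in G2 and mitosis. The sequences are from RefSeq on GRCm38.p6, run 5′ to 3′ on the gene's strand from 250 bases before to 50 bases after the annotated start, and capitals mark both motifs on either strand. Ccnb2 lies at chr9:70421505-70421804 on the minus strand and Hmmr at chr11:40733388-40733687 on the minus strand.
Ccnb2: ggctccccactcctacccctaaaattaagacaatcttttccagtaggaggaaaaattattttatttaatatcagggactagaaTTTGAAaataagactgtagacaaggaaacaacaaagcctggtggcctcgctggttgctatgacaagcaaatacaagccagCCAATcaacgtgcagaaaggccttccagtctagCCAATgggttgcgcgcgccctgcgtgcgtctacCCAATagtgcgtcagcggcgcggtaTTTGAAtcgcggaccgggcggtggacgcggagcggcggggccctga
Hmmr: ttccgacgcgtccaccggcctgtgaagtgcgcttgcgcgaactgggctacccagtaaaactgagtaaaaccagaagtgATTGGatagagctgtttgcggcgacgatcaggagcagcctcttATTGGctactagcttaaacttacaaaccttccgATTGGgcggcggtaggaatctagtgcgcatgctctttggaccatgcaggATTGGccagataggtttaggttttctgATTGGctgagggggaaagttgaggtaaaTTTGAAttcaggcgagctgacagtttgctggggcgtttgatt
Among the 17 mitotic promoters in the table, which covers 17 of the 20 members, TTTGAA was found on either strand in 58.8%, against 17.9% of all 32851 promoters, and CCAAT in 82.4%, against 37.4%. Of the 13 risen members with a promoter, 10 held TTTGAA and 12 held CCAAT. In the replisome list, 26 of 34 genes matched 30 promoters, of which 20% held the E2F motif TTTGGCGC, against 0.514% of all promoters, and 20% held TTTCCCGC, against 1.07%. Among 10 risen replisome members with a promoter, 4 held TTTGGCGC and 2 held TTTCCCGC. These are matches of letters and not shown to be bound sites, and these motifs were searched because such genes are known for them.

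Sterol synthesis was higher along almost the whole pathway. Of 20 tested enzymes 16 rose and 0 fell, with a median log2 fold change of 1.18. All 20 had both SCF libraries above both IL-3 libraries, as did 26.2% of all tested genes. Summed over the list the level was 1592 and 1588 CPM in the SCF libraries and 830.1 and 636 CPM in the IL-3 libraries. Taken in the order of the reactions, the early enzyme Hmgcs1, which makes HMG-CoA, had 184 and 164 CPM in the SCF libraries, against 86.5 and 48.4 CPM in the IL-3 libraries (log2 fold change 1.34 ± 0.23, adjusted p = 0.00173). Mevalonate kinase (Mvk) had 51.1 and 47.9 CPM with SCF and 20.7 and 14.04 CPM with IL-3 alone (log2 fold change 1.48 ± 0.24, adjusted p = 0.00118). Mvd, which decarboxylates mevalonate diphosphate, had 40.5 and 37.2 CPM with SCF and 17.6 and 2.81 CPM with IL-3 alone (log2 fold change 1.81 ± 0.40, adjusted p = 0.00947), with the IL-3 libraries far apart. In the sterol-specific steps of the pathway, lanosterol demethylase (Cyp51) had 109 and 138 CPM in the SCF libraries, against 46.6 and 40.7 CPM in the IL-3 libraries (log2 fold change 1.48 ± 0.18, adjusted p = 1.03e-04). Acat2, which supplies acetoacetyl-CoA at the entry, had 30.04 and 40.97 CPM with SCF and 13.99 and 11.2 CPM with IL-3 alone (log2 fold change 1.46 ± 0.29, adjusted p = 0.00516). The 4 enzymes not past the threshold were Pmvk, Fdps, Ebp and Dhcr7, with log2 fold changes of 0.40, 0.60, 0.56 and 0.68. Hmgcs1 and these 4 were singled out after their values were seen. Acat2 (adjusted p = 0.0657) missed the threshold without SCF replicate 2. Hmgcs1 (adjusted p = 0.0517), Mvd (0.0715) and Acat2 (0.0719) missed the threshold without IL-3 replicate 2. Mvd (log2 fold change 3.76) moved by over 1.5 times in fold without IL-3 replicate 1. Mvd (log2 fold change 1.14) moved by over 1.5 times in fold without IL-3 replicate 2. Mvk and Cyp51 stayed past the threshold whichever of the 4 libraries was left out. For sterol enzymes, the number higher was 5 without IL-3 replicate 2.

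**Figure D3:**
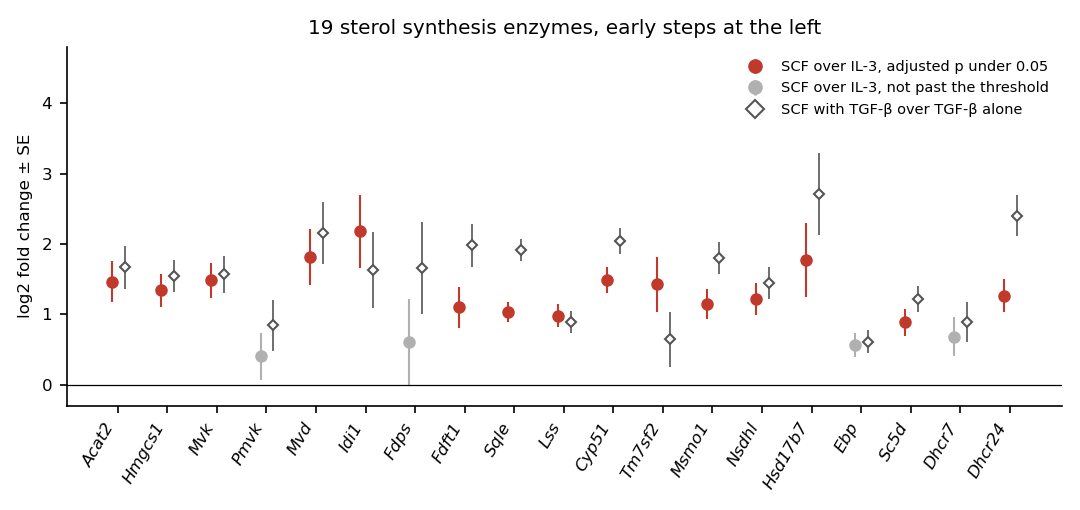
Log2 fold change ± SE of 19 of the 20 sterol synthesis enzymes in pathway order, early steps at the left. Filled circles are SCF over IL-3 (red where past the threshold, grey where not) and open diamonds the SCF contrast among libraries with TGF-β, which shares no library with the first. All 19 circles and all 19 diamonds lie above 0.

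The regulators of sterol supply were called in part. Of 15 tested genes of sterol sensing, uptake and efflux 6 rose and 0 fell. Insig1, which holds the SREBP precursors in the ER, had 92.1 and 76.9 CPM with SCF and 45.6 and 30.2 CPM with IL-3 alone (log2 fold change 1.14 ± 0.25, adjusted p = 0.00854). Osbpl8, a lipid transfer protein at contacts of the ER with the plasma membrane, was among the 10 rises with the smallest p, at 373 and 311 CPM with SCF and 109 and 96.1 CPM with IL-3 alone (log2 fold change 1.73 ± 0.17, adjusted p = 1.90e-05). The efflux pump Abcg1 had 122 and 120.4 CPM in the SCF libraries, against 54.4 and 61.8 CPM in the IL-3 libraries (log2 fold change 1.06 ± 0.18, adjusted p = 0.00169). Abca1, the other main efflux pump and a target of the oxysterol receptor LXR, had 13.02 and 8.19 CPM in the SCF libraries, against 3.63 and 2.11 CPM in the IL-3 libraries and did not pass the threshold (log2 fold change 1.84 ± 0.59, adjusted p = 0.0633). In none of these 4 genes did the groups overlap. Insig1 (adjusted p = 0.0556) missed the threshold without SCF replicate 1. Insig1 (adjusted p = 0.133) missed the threshold without IL-3 replicate 2. Osbpl8 and Abcg1 stayed past the threshold whichever of the 4 libraries was left out. For sterol supply genes, the number higher was 2 without SCF replicate 1 and 2 without IL-3 replicate 2.

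The promoter of Hmgcs1, at chr13:119690101-119690400 on the plus strand, is the only one of the 18 promoters found for 15 sterol enzymes that held the sterol regulatory element TCACNCCAC (5.56%, against 1.24% of all promoters), on either strand and in this window. It is shown with the match in capitals, read as for the mitotic promoters.
Hmgcs1: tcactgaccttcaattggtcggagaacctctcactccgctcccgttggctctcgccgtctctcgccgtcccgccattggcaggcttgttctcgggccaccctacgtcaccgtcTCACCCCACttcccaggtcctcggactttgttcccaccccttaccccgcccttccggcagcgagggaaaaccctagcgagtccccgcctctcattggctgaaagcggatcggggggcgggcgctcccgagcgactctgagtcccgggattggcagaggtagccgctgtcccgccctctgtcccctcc

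Genes of fatty acid synthesis were higher, while few genes of fatty acid oxidation passed the threshold. Of 14 tested genes of fatty acid synthesis and desaturation 7 rose and 1 fell (Acss2), with a median log2 fold change of 0.94, while of 14 oxidation genes 1 rose (Acadl) and the median was 0.01. Fatty acid synthase (Fasn) had 220.3 and 253 CPM in the SCF libraries, against 88.1 and 73.7 CPM in the IL-3 libraries (log2 fold change 1.54 ± 0.16, adjusted p = 1.90e-05). Acetyl-CoA carboxylase 1 (Acaca), the step before it, had 23.03 and 28.99 CPM with SCF and 12.96 and 5.61 CPM with IL-3 alone (log2 fold change 1.41 ± 0.36, adjusted p = 0.0215). The desaturase Scd2 had 184 and 126 CPM in the SCF libraries, against 48.2 and 32.3 CPM in the IL-3 libraries (log2 fold change 1.93 ± 0.29, adjusted p = 5.92e-04). Scd1, its near paralog, was close to detection in the IL-3 libraries, so that its fitted fold change is uncertain and, against the IL-3 library with 0 counts alone, is no bound; it had 26.03 and 17.02 CPM with SCF and 2.59 and 0 CPM with IL-3 alone (log2 fold change 3.82 ± 0.64, adjusted p = 0.00133). SCF and IL-3 libraries did not overlap for any of these 4. Cpt1a, which admits fatty acids to mitochondria, had 31.5 and 15.8 CPM in the SCF libraries, against 34.2 and 42.1 CPM in the IL-3 libraries (log2 fold change -0.65 ± 0.28, adjusted p = 0.177). Acadm, a dehydrogenase of medium-chain fatty acids, had 63.6 and 64.3 CPM with SCF and 53.9 and 72.3 CPM with IL-3 alone, with overlapping groups (log2 fold change 0.03 ± 0.20, adjusted p = 0.947). Acaca (adjusted p = 0.14) missed the threshold without SCF replicate 2. Acaca (adjusted p = 0.206) missed the threshold without IL-3 replicate 2. Cpt1a (adjusted p = 0.0321) passed it without SCF replicate 1. Acaca (log2 fold change 2.19) and Scd1 (8.24) moved by over 1.5 times in fold without IL-3 replicate 1. Scd1 (log2 fold change 3.04) moved by over 1.5 times in fold without IL-3 replicate 2. Fasn, Scd2 and Scd1 stayed past the threshold whichever of the 4 libraries was left out. For fatty acid synthesis genes, the number higher was 3 without SCF replicate 2 and 3 without IL-3 replicate 2. The median of oxidation genes ran from -0.01 without SCF replicate 1 to 0.11 without IL-3 replicate 2. Fatty acid synthesis genes gave 0 to 1 lower, and oxidation genes 0 to 1 higher and 0 to 1 lower as each of the 4 libraries was left out, and every one of the 4 moved 1 or more of these counts by over 1.5 times.

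Of the protein synthesis machinery, the cytosolic ribosomal proteins and the elongation factors Eef2 and Eef1a1 were higher, while the genes that build ribosomes were near the background. Eef2 and Eef1a1 were picked for their large difference in mean CPM, and elongation factors were not examined as a list. Of 79 tested cytosolic ribosomal proteins 46 rose and 0 fell (median log2 fold change 0.57). For 73 of them both SCF libraries lay above both IL-3 libraries, as for 26.2% of all tested genes. Of 77 mitochondrial ribosomal proteins 0 were called (median 0.23), and of 34 ribosome biogenesis genes 1 rose (Npm1; median 0.06). The cytosolic ribosomal proteins summed to 26192 and 23379 CPM in the SCF libraries and 18294 and 16032 CPM in the IL-3 libraries. Rpl32 had 494 and 408 CPM in the SCF libraries, against 269 and 201 CPM in the IL-3 libraries (log2 fold change 0.94 ± 0.17, adjusted p = 0.00234). Eef2, the translocase of elongation, had 3167 and 2768 CPM in the SCF libraries, against 1766 and 1612 CPM in the IL-3 libraries (log2 fold change 0.81 ± 0.13, adjusted p = 0.00122). Eef1a1, which brings aminoacyl-tRNA to the ribosome, had 4294 and 3582 CPM with SCF and 2642 and 2517 CPM with IL-3 alone (log2 fold change 0.61 ± 0.14, adjusted p = 0.00947). All 3 were higher in both SCF libraries than in both IL-3 libraries. Nucleolin (Ncl), which acts in rRNA transcription and processing, had 261 and 294 CPM with SCF and 285 and 258 CPM with IL-3 alone (log2 fold change 0.03 ± 0.14, adjusted p = 0.934). Nop56, a core protein of the snoRNP that methylates rRNA, had 77.1 and 84.5 CPM with SCF and 102 and 77.9 CPM with IL-3 alone (log2 fold change -0.17 ± 0.21, adjusted p = 0.673), and both overlapped between groups. Nucleophosmin (Npm1) had 361 and 353 CPM in the SCF libraries, against 232 and 185 CPM in the IL-3 libraries (log2 fold change 0.77 ± 0.14, adjusted p = 0.00293). Ribosomal protein genes, Eef1a1 and Npm1 have many processed pseudogenes, so the counts lack reads that could not be placed uniquely. Ribosomal RNA loci took 13.7% and 15.2% of gene counts with SCF, against 16.6% and 18.3% with IL-3 alone. Eef1a1 (adjusted p = 0.0821) missed the threshold without SCF replicate 1. Rpl32 (adjusted p = 0.069), Eef1a1 (0.106) and Npm1 (0.0677) missed the threshold without IL-3 replicate 2. Eef2 stayed past the threshold whichever of the 4 libraries was left out. For cytosolic ribosomal proteins, the number higher was 12 without SCF replicate 1, 27 without SCF replicate 2 and 1 without IL-3 replicate 2. The median of mitochondrial ribosomal proteins was 0.10 without SCF replicate 2. The median of ribosome biogenesis genes ran from -0.07 without SCF replicate 2 to 0.21 without SCF replicate 1. Ribosome biogenesis genes gave 0 to 1 higher as each of the 4 libraries was left out, with moves of over 1.5 times without IL-3 replicate 2.

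Carbon and energy metabolism was higher in parts. Of 21 tested glycolysis genes 5 rose, of 21 tricarboxylic acid cycle genes 3, of 72 nuclear-encoded subunits of the respiratory chain 8, and of 8 pentose phosphate and NADPH genes 2; 0 fell in any of the 4 lists, and the medians were 0.47, 0.31, 0.31 and 0.43. Pyruvate kinase (Pkm), the last step of glycolysis, had 883 and 1000.3 CPM in the SCF libraries, against 418 and 465 CPM in the IL-3 libraries (log2 fold change 1.09 ± 0.14, adjusted p = 1.41e-04). Ldha, which turns pyruvate into lactate, had 1717 and 2142 CPM with SCF and 1160.2 and 1008 CPM with IL-3 alone (log2 fold change 0.83 ± 0.14, adjusted p = 0.00128). The glucose transporter Slc2a3 had 208 and 202 CPM with SCF and 116 and 124 CPM with IL-3 alone (log2 fold change 0.78 ± 0.15, adjusted p = 0.00333). In all of these the SCF libraries stood above the IL-3 libraries. Citrate synthase (Cs), the entry to the tricarboxylic acid cycle, had 363 and 405 CPM in the SCF libraries, against 261 and 209 CPM in the IL-3 libraries (log2 fold change 0.71 ± 0.15, adjusted p = 0.008). Ndufa8, a subunit of complex I, had 78.6 and 76.3 CPM with SCF and 37.8 and 43.5 CPM with IL-3 alone (log2 fold change 0.94 ± 0.20, adjusted p = 0.00664). Ucp2, a carrier of the inner mitochondrial membrane, was among the 10 rises with the largest difference in CPM, at 1717 and 1541 CPM with SCF and 896 and 779.6 CPM with IL-3 alone (log2 fold change 0.96 ± 0.13, adjusted p = 1.91e-04). Psat1, an aminotransferase of serine synthesis, had 50.6 and 71.2 CPM in the SCF libraries, against 19.2 and 9.82 CPM in the IL-3 libraries (log2 fold change 2.01 ± 0.35, adjusted p = 0.00181), the largest change among the 3 that rose of 20 genes of serine, one-carbon and amino acid supply. Nqo1, a quinone reductase, had 139 and 160.1 CPM with SCF and 94.8 and 47.02 CPM with IL-3 alone (log2 fold change 1.04 ± 0.23, adjusted p = 0.00947) and was 1 of 4 risen genes of 20 in redox defence. None of these genes overlapped between groups. Cs (adjusted p = 0.078) and Nqo1 (0.0828) missed the threshold without SCF replicate 2. Ndufa8 (adjusted p = 0.0593) missed the threshold without IL-3 replicate 1. Cs (adjusted p = 0.127), Psat1 (0.0566) and Nqo1 (0.12) missed the threshold without IL-3 replicate 2. Psat1 (log2 fold change 2.61) and Nqo1 (1.66) moved by over 1.5 times in fold without IL-3 replicate 1. Pkm, Ldha, Slc2a3 and Ucp2 stayed past the threshold whichever of the 4 libraries was left out. For glycolysis, the number higher was 8 without SCF replicate 1 and 3 without IL-3 replicate 2. The median of glycolysis was 0.72 without IL-3 replicate 1. For the respiratory chain, the number higher was 1 without SCF replicate 2, 3 without IL-3 replicate 1 and 1 without IL-3 replicate 2. The tricarboxylic acid cycle gave 0 to 2 higher, the pentose phosphate list 0 to 2 higher, serine and amino acid supply 0 to 3 higher, and redox defence 0 to 4 higher as each of the 4 libraries was left out, and every one of the 4 moved 1 or more of these counts by over 1.5 times.

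Among genes of protein folding in the endoplasmic reticulum (ER), more than the share of all genes were called higher. Of 20 tested ER chaperones and unfolded protein response genes 12 rose and 0 fell, with a median log2 fold change of 0.58; of 21 genes of the translocon, signal peptidase and oligosaccharyltransferase 5 rose (median 0.26). Hspa5 (BiP), the main ER chaperone, had 852 and 915 CPM in the SCF libraries, against 607 and 551 CPM in the IL-3 libraries (log2 fold change 0.61 ± 0.13, adjusted p = 0.00728). Calreticulin (Calr), a lectin chaperone, had 655 and 784 CPM in the SCF libraries, against 419 and 339.6 CPM in the IL-3 libraries (log2 fold change 0.92 ± 0.16, adjusted p = 0.00152). Ero1l, the oxidase that drives disulfide formation, had 1164 and 1382 CPM with SCF and 580.4 and 575 CPM with IL-3 alone (log2 fold change 1.14 ± 0.13, adjusted p = 5.55e-05). All 3 stood higher in both SCF libraries. Sdf2l1, a cofactor of the ER chaperones, had 141 and 217 CPM with SCF and 87.1 and 77.2 CPM with IL-3 alone (log2 fold change 1.11 ± 0.20, adjusted p = 0.00234). Ssr4, a subunit of the translocon-associated complex, had 552 and 539 CPM with SCF and 353 and 321 CPM with IL-3 alone (log2 fold change 0.69 ± 0.13, adjusted p = 0.00282). Sec61a1, the pore of the translocon, had 507 and 509 CPM in the SCF libraries, against 447 and 469 CPM in the IL-3 libraries and did not pass the threshold (log2 fold change 0.15 ± 0.13, adjusted p = 0.531). Hspa5 (adjusted p = 0.0678) and Sdf2l1 (0.0522) missed the threshold without SCF replicate 2. Hspa5 (adjusted p = 0.095), Sdf2l1 (0.0565) and Ssr4 (0.0559) missed the threshold without IL-3 replicate 2. Calr and Ero1l stayed past the threshold whichever of the 4 libraries was left out. For ER chaperones, the number higher was 3 without SCF replicate 2, 7 without IL-3 replicate 1 and 3 without IL-3 replicate 2. For translocon genes, the number higher was 2 without SCF replicate 2, 3 without IL-3 replicate 1 and 1 without IL-3 replicate 2.

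In the list of ER chaperones and unfolded protein response genes, 18 of 21 members matched 18 promoters. An ER stress element, CCAAT followed after 9 bases by CCACG on either strand, was found in 44.4% of these, against 0.119% of all promoters. Of the 11 risen members with a promoter, 6 held the element. Creld2 (chr15:88819396-88819695, plus strand) and Calr (chr8:84846882-84847181, minus strand) are shown as the risen members with the element and the largest fold change; the capitals mark the element, here in its reverse complement. Creld2 is an ER protein that had 88.1 and 119 CPM in the SCF libraries, against 58.6 and 48.4 CPM in the IL-3 libraries (log2 fold change 0.94 ± 0.23, adjusted p = 0.0173). The element was searched because genes of this kind are known for it. Creld2 (adjusted p = 0.18) missed the threshold without SCF replicate 2. Creld2 (adjusted p = 0.0517) missed the threshold without IL-3 replicate 1. Creld2 (adjusted p = 0.173) missed the threshold without IL-3 replicate 2.
Creld2: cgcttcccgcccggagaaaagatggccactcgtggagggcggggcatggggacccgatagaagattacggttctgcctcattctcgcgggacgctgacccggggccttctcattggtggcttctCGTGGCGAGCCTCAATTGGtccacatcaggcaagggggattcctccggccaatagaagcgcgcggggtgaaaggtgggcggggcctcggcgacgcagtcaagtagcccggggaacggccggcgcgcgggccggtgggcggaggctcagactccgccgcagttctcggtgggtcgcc
Calr: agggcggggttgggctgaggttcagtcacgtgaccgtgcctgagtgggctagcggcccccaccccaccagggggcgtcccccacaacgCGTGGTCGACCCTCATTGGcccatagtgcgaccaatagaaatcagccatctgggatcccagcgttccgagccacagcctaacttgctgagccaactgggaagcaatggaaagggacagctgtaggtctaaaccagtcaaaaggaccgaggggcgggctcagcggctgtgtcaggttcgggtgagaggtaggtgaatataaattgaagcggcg

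Cytoskeletal genes were higher: of 35 tested actin and tubulin genes 20 rose and 1 fell (vinculin, Vcl), with a median log2 fold change of 0.50 and a sum of 20065 and 23942 CPM in the SCF libraries and 15134 and 15062 CPM in the IL-3 libraries. Gelsolin (Gsn), which severs actin filaments, had 1222 and 1464 CPM in the SCF libraries, against 562 and 589 CPM in the IL-3 libraries (log2 fold change 1.22 ± 0.13, adjusted p = 3.53e-05). Capg, a capping protein of the same family, had 452 and 517 CPM with SCF and 181 and 197 CPM with IL-3 alone (log2 fold change 1.36 ± 0.14, adjusted p = 2.94e-05). The tubulin Tubb6 had 46.1 and 59.9 CPM in the SCF libraries, against 8.81 and 9.12 CPM in the IL-3 libraries (log2 fold change 2.55 ± 0.35, adjusted p = 2.18e-04), and in these 3 genes the groups were far apart. Filamin A (Flna), an actin cross-linker, had 112 and 165 CPM with SCF and 50.3 and 75.1 CPM with IL-3 alone (log2 fold change 1.16 ± 0.25, adjusted p = 0.00767). The structural genes Actb and Tubb5 lay higher in both SCF libraries, without passing the threshold. Actb had 5100.1 and 6790.3 CPM in the SCF libraries, against 4191 and 4187 CPM in the IL-3 libraries (log2 fold change 0.50 ± 0.16, adjusted p = 0.0631), and Tubb5 had 978 and 1191 CPM with SCF and 831 and 714 CPM with IL-3 alone (log2 fold change 0.49 ± 0.15, adjusted p = 0.0544). Among 22 tested integrins, tetraspanins and other adhesion genes 2 rose and 3 fell. Cd24a, a small surface glycoprotein, had 5.51 and 3.15 CPM in the SCF libraries, against 62.2 and 33.7 CPM in the IL-3 libraries (log2 fold change -3.44 ± 0.37, adjusted p = 3.53e-05). The integrin chain Itgb7, carried by mast cell progenitors, had 701 and 783 CPM with SCF and 625 and 800.0 CPM with IL-3 alone and overlapped between groups (log2 fold change 0.06 ± 0.14, adjusted p = 0.844). Flna (adjusted p = 0.108) missed the threshold without SCF replicate 2. Flna (adjusted p = 0.103) missed the threshold without IL-3 replicate 1. Actb (adjusted p = 0.0276) and Tubb5 (0.041) passed it without SCF replicate 1. Gsn, Capg, Tubb6 and Cd24a stayed past the threshold whichever of the 4 libraries was left out. For cytoskeletal genes, the number higher was 8 without SCF replicate 2, 13 without IL-3 replicate 1 and 6 without IL-3 replicate 2. Cytoskeletal genes gave 0 to 1 lower, and adhesion genes 1 to 3 higher and 1 to 3 lower as each of the 4 libraries was left out, and every one of the 4 moved 1 or more of these counts by over 1.5 times.

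Lysosomal genes moved singly. Of 31 tested lysosomal enzymes 7 rose and 1 fell (median log2 fold change 0.24), of 15 membrane proteins and regulators 3 rose and 1 fell (Mitf), and of 18 subunits of the vacuolar proton pump 1 rose. Among the cathepsins, Ctsd, an aspartic protease, had 3366 and 3131 CPM in the SCF libraries, against 1698 and 1702 CPM in the IL-3 libraries (log2 fold change 0.93 ± 0.12, adjusted p = 1.03e-04), and Ctsb, a cysteine protease, had 631 and 591 CPM with SCF and 274 and 289 CPM with IL-3 alone (log2 fold change 1.12 ± 0.13, adjusted p = 5.64e-05). Gla, the alpha-galactosidase that cleaves globotriaosylceramide, had 52.1 and 54.2 CPM in the SCF libraries, against 10.4 and 11.9 CPM in the IL-3 libraries (log2 fold change 2.26 ± 0.26, adjusted p = 5.55e-05). Cd68, a lysosomal membrane protein often used as a macrophage marker, had 50.1 and 65.6 CPM in the SCF libraries, against 1.55 and 4.91 CPM in the IL-3 libraries (log2 fold change 4.23 ± 0.52, adjusted p = 1.02e-04). Progranulin (Grn), a lysosomal cofactor, had 596 and 678 CPM with SCF and 250.3 and 264 CPM with IL-3 alone (log2 fold change 1.31 ± 0.13, adjusted p = 1.90e-05). All 5 lay well above the IL-3 libraries. Sgsh, a heparan sulfate sulfatase, was lower, at 34.5 and 19.5 CPM in the SCF libraries, against 59.1 and 75.8 CPM in the IL-3 libraries (log2 fold change -1.28 ± 0.26, adjusted p = 0.00608). The membrane protein Lamp1 had 306 and 109 CPM with SCF and 268 and 262 CPM with IL-3 alone, with the SCF libraries on both sides of the IL-3 libraries (log2 fold change -0.34 ± 0.32, adjusted p = 0.56). The 31 lysosomal enzymes matched in RefSeq had 36 promoters. The CLEAR element TCACGTGA, its own reverse complement, was found in 3 of them (8.33%), against 0.974% of all promoters. Among 5 risen members with a promoter, 2 held it. These are matches of letters, and the element was searched because such genes are known for it. Sgsh (adjusted p = 0.0861) missed the threshold without SCF replicate 2. Sgsh (adjusted p = 0.0878) missed the threshold without IL-3 replicate 2. Lamp1 (adjusted p = 0.011) passed it without SCF replicate 1. Cd68 (log2 fold change 3.53) moved by over 1.5 times in fold without IL-3 replicate 1. Cd68 (log2 fold change 5.15) moved by over 1.5 times in fold without IL-3 replicate 2. Ctsd, Ctsb, Gla, Cd68 and Grn stayed past the threshold whichever of the 4 libraries was left out. For lysosomal enzymes, the number higher was 4 without SCF replicate 2 and 4 without IL-3 replicate 2. Lysosomal enzymes gave 0 to 2 lower, lysosomal membrane genes 1 to 2 higher and 0 to 1 lower, and the proton pump 0 to 2 higher as each of the 4 libraries was left out, and every one of the 4 moved 1 or more of these counts by over 1.5 times.

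Of the genes for the granule and its release, the content genes Cpa3, Tpsb2 and Srgn rose by under 2-fold to about 2-fold and the release machinery moved both ways. Carboxypeptidase A3 (Cpa3), the called protein-coding gene with the largest difference in mean CPM, had 26737 and 23525 CPM in the SCF libraries, against 15870.0 and 15241 CPM in the IL-3 libraries (log2 fold change 0.69 ± 0.12, adjusted p = 0.00139). The tryptase Tpsb2 had 18210.0 and 15124 CPM in the SCF libraries, against 8416 and 7488 CPM in the IL-3 libraries (log2 fold change 1.07 ± 0.13, adjusted p = 1.01e-04); its reads can be shared with the near-identical Tpsab1. Serglycin (Srgn), the core protein that holds proteases in the granule, had 4863 and 5030.5 CPM with SCF and 3146 and 2953 CPM with IL-3 alone (log2 fold change 0.70 ± 0.11, adjusted p = 0.00101). These 3 did not overlap between groups. The vesicular amine transporter Slc18a2, which loads histamine and serotonin, was lower, at 1308 and 1159 CPM in the SCF libraries, against 1745 and 1735 CPM in the IL-3 libraries (log2 fold change -0.50 ± 0.13, adjusted p = 0.021), while histidine decarboxylase (Hdc), which makes histamine, had 123 and 82.6 CPM with SCF and 98.5 and 110.2 CPM with IL-3 alone and overlapped (log2 fold change -0.01 ± 0.21, adjusted p = 0.982). Ddc, the decarboxylase that makes serotonin and dopamine, had 47.1 and 75.6 CPM with SCF and 16.1 and 16.1 CPM with IL-3 alone (log2 fold change 1.91 ± 0.26, adjusted p = 2.18e-04). Of 23 tested exocytosis genes 2 rose and 3 fell. The granule-tethering GTPase Rab27b had 415 and 454 CPM with SCF and 249.8 and 276 CPM with IL-3 alone (log2 fold change 0.72 ± 0.14, adjusted p = 0.00346), and its effector Sytl2 had 60.6 and 75.6 CPM with SCF and 16.1 and 25.3 CPM with IL-3 alone (log2 fold change 1.74 ± 0.23, adjusted p = 1.75e-04). Vamp2, a vesicle SNARE, had 28.03 and 22.1 CPM in the SCF libraries, against 54.4 and 49.1 CPM in the IL-3 libraries (log2 fold change -1.04 ± 0.22, adjusted p = 0.00735). Vamp8, the vesicle SNARE known for mast cell degranulation, had 207 and 201 CPM with SCF and 184 and 187 CPM with IL-3 alone (log2 fold change 0.14 ± 0.14, adjusted p = 0.579), and its partner Snap23 had 257 and 258 CPM with SCF and 307 and 296 CPM with IL-3 alone (log2 fold change -0.23 ± 0.14, adjusted p = 0.342); in neither did the groups overlap, and neither passed the threshold. Of 21 proteoglycan synthesis genes 2 rose and 1 fell, of 7 amine genes 1 rose and 1 fell, and of 10 eicosanoid genes 2 rose (Hpgds and Ltc4s). Slc18a2 (adjusted p = 0.194) and Vamp2 (0.094) missed the threshold without SCF replicate 2. Slc18a2 (adjusted p = 0.0676) and Vamp2 (0.0501) missed the threshold without IL-3 replicate 1. Slc18a2 (adjusted p = 0.113) missed the threshold without IL-3 replicate 2. Cpa3, Tpsb2, Srgn, Ddc, Rab27b and Sytl2 stayed past the threshold whichever of the 4 libraries was left out. Exocytosis genes gave 0 to 2 lower, proteoglycan synthesis 1 to 2 higher and 0 lower, amine genes 0 to 1 lower, and eicosanoid genes 0 to 1 higher as each of the 4 libraries was left out, and every one of the 4 moved 1 or more of these counts by over 1.5 times.

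**Figure D4:**
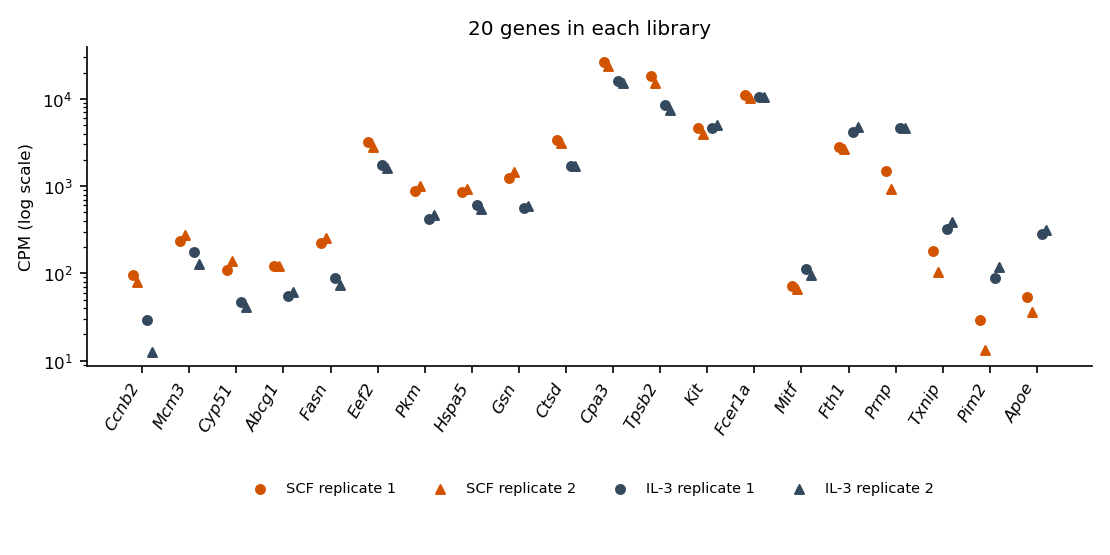
CPM (log scale, vertical axis) of 20 genes in each library, SCF libraries in orange and IL-3 libraries in dark blue, circles for replicate 1 and triangles for replicate 2. From Ccnb2 to Tpsb2 the SCF libraries lie above the IL-3 libraries, for Kit and Fcer1a they overlap, and from Mitf to Apoe they lie below.

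At the cell surface, 4% of the growth factor receptor list and 11.5% of the IgE receptor list were called, against 9.17% of all genes tested. Of 25 tested cytokine and growth factor receptors 1 rose (Il18rap) and 0 fell, and of 26 genes of the IgE receptor and its proximal signalling 2 rose (Lat and Kcnn4) and 1 fell (Itpr2). The difference for Kit was -0.17 ± 0.12 on the log2 scale, and for Fcer1a 0.02 ± 0.11. Csf2rb, the shared signalling chain of the IL-3 receptor, had 5008 and 5229.7 CPM in the SCF libraries, against 3984 and 4341 CPM in the IL-3 libraries (log2 fold change 0.30 ± 0.11, adjusted p = 0.106). Ms4a2, the beta chain of the IgE receptor, had 1451 and 1563 CPM with SCF and 1416 and 1519 CPM with IL-3 alone (log2 fold change 0.04 ± 0.12, adjusted p = 0.886). Il18rap, the accessory chain for IL-18, had 81.6 and 86.98 CPM in the SCF libraries, against 30.6 and 25.96 CPM in the IL-3 libraries (log2 fold change 1.56 ± 0.22, adjusted p = 3.72e-04), with no overlap. Genes of the inhibitory and Fc immunoreceptor list moved in both directions: of 18 tested 2 rose (Lair1 and Cd33) and 3 fell (Cd274, Cd300a and Fcgr2b). The collagen receptor Lair1 had 138 and 136 CPM in the SCF libraries, against 53.4 and 42.8 CPM in the IL-3 libraries (log2 fold change 1.49 ± 0.18, adjusted p = 1.03e-04). Cd33, a sialic acid-binding lectin, had 246 and 239 CPM with SCF and 119 and 131 CPM with IL-3 alone (log2 fold change 0.96 ± 0.15, adjusted p = 7.22e-04). Cd300a, a lipid-binding inhibitory receptor, had 402 and 354 CPM with SCF and 608 and 668 CPM with IL-3 alone (log2 fold change -0.75 ± 0.15, adjusted p = 0.0044). The first 2 were higher and the third lower in both SCF libraries. Among 23 tested G protein-coupled and purinergic receptors 3 rose (C3ar1, Ccr1 and Mrgprb1) and 1 fell (Mrgprb2). The chemokine receptor Ccr1 had 173 and 165 CPM with SCF and 57.5 and 87.02 CPM with IL-3 alone (log2 fold change 1.24 ± 0.19, adjusted p = 6.80e-04). Mrgprb2, the receptor for cationic secretagogues, had 61.6 and 31.5 CPM in the SCF libraries, against 77.2 and 112 CPM in the IL-3 libraries (log2 fold change -0.99 ± 0.29, adjusted p = 0.0392), and Mrgprb1, a near paralog whose reads it can share, had 25.5 and 19.5 CPM with SCF and 5.18 and 2.11 CPM with IL-3 alone (log2 fold change 2.54 ± 0.54, adjusted p = 0.00718). Mrgprb1 (adjusted p = 0.0505) missed the threshold without SCF replicate 1. Cd300a (adjusted p = 0.0657) and Mrgprb2 (0.336) missed the threshold without SCF replicate 2. Cd300a (adjusted p = 0.0664), Mrgprb2 (0.336) and Mrgprb1 (0.0975) missed the threshold without IL-3 replicate 2. Mrgprb1 (log2 fold change 3.39) moved by over 1.5 times in fold without IL-3 replicate 1. Il18rap, Lair1, Cd33 and Ccr1 stayed past the threshold whichever of the 4 libraries was left out. IgE signalling gave 0 to 2 higher and 0 lower, inhibitory receptors 0 to 2 lower, and G protein-coupled receptors 0 to 1 lower as each of the 4 libraries was left out, and every one of the 4 moved 1 or more of these counts by over 1.5 times.

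Lists of genes known as outputs of signalling pathways gave calls in both directions. Of 15 tested ERK feedback and target genes 3 rose and 1 fell, of 14 STAT5 targets 1 rose (Ccnd2) and 4 fell, of 17 FOXO targets 0 rose and 2 fell, of 17 p53 targets 4 rose and 0 fell, and of 15 immediate early genes 0 were called. Dusp4, a phosphatase that ERK induces and that acts on it, had 80.1 and 78.2 CPM in the SCF libraries, against 14.5 and 14.7 CPM in the IL-3 libraries (log2 fold change 2.43 ± 0.23, adjusted p = 1.45e-05). Etv5, an ETS factor downstream of ERK, had 40.5 and 51.1 CPM in the SCF libraries, against 9.85 and 7.02 CPM in the IL-3 libraries (log2 fold change 2.40 ± 0.28, adjusted p = 7.66e-05). Both were several-fold above the IL-3 libraries. The ERK list as a whole did not follow them. A positive log2 fold change was found in 7 of its 15 tested members. Its median was -0.07 (-0.12 to 0.31 with 1 of the 4 libraries left out). Dusp6 had 214 and 188 CPM with SCF and 153 and 139 CPM with IL-3 alone (log2 fold change 0.46 ± 0.18, adjusted p = 0.129). Errfi1, an inhibitor of EGF receptor kinases, was lower, at 21.02 and 6.93 CPM with SCF and 38.9 and 51.9 CPM with IL-3 alone (log2 fold change -1.63 ± 0.36, adjusted p = 0.00945). Pim2, a STAT5-induced kinase that favours survival, had 29.04 and 13.2 CPM in the SCF libraries, against 88.6 and 118 CPM in the IL-3 libraries (log2 fold change -2.24 ± 0.29, adjusted p = 1.60e-04), and Pim1 had 104 and 69.96 CPM with SCF and 149 and 155 CPM with IL-3 alone (log2 fold change -0.79 ± 0.20, adjusted p = 0.0204). Cish, a STAT5-induced inhibitor of cytokine signalling, had 584 and 499 CPM with SCF and 604 and 738 CPM with IL-3 alone (log2 fold change -0.31 ± 0.14, adjusted p = 0.208); the groups did not overlap in any of the 3. The FOXO list had a median of -0.52. Txnip, a FOXO and glucose-responsive inhibitor of thioredoxin, had 180.2 and 105 CPM in the SCF libraries, against 325 and 386 CPM in the IL-3 libraries (log2 fold change -1.31 ± 0.27, adjusted p = 0.00589). Ccng1, a p53-induced cyclin, had 302 and 342 CPM with SCF and 172 and 137 CPM with IL-3 alone (log2 fold change 1.05 ± 0.16, adjusted p = 5.85e-04), and Mdm2, the ligase that degrades p53, had 139 and 141 CPM with SCF and 79.3 and 89.8 CPM with IL-3 alone (log2 fold change 0.73 ± 0.16, adjusted p = 0.00885). Txnip was lower and both p53 targets were higher in each SCF library. The p53 target Cdkn1a (p21) had 579 and 527 CPM in the SCF libraries, against 458 and 460.4 CPM in the IL-3 libraries (log2 fold change 0.27 ± 0.13, adjusted p = 0.22). Of 12 BCL2 family genes 1 rose (Bax) and 1 fell (Bid), and Bcl2 had 363 and 274 CPM with SCF and 348 and 394 CPM with IL-3 alone (log2 fold change -0.22 ± 0.15, adjusted p = 0.417). Errfi1 (adjusted p = 0.105), Pim1 (0.226), Txnip (0.0869) and Mdm2 (0.0554) missed the threshold without SCF replicate 2. Pim1 (adjusted p = 0.0655) and Mdm2 (0.0695) missed the threshold without IL-3 replicate 1. Errfi1 (adjusted p = 0.12), Pim1 (0.136) and Txnip (0.0847) missed the threshold without IL-3 replicate 2. Errfi1 (log2 fold change -2.69) and Pim2 (-2.95) moved by over 1.5 times in fold without SCF replicate 1. Dusp4, Etv5, Pim2 and Ccng1 stayed past the threshold whichever of the 4 libraries was left out. The median of FOXO targets was -0.27 without IL-3 replicate 2. ERK targets gave 0 to 2 lower, STAT5 targets 1 to 3 lower, FOXO targets 0 to 4 lower, p53 targets 1 to 2 higher, immediate early genes 0 to 1 higher and 0 to 3 lower, and the BCL2 family 0 higher and 0 lower as each of the 4 libraries was left out, and every one of the 4 moved 1 or more of these counts by over 1.5 times.

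Transcription factors of the lineage were lower or not past the threshold. Of 24 tested 0 rose and 5 fell (Id3, Stat5a, Stat5b, Bhlhe40 and Mitf), with a median log2 fold change of -0.37. Bhlhe40, a basic helix-loop-helix repressor, had 438 and 374 CPM in the SCF libraries, against 632 and 777 CPM in the IL-3 libraries (log2 fold change -0.79 ± 0.14, adjusted p = 0.00202). Stat5a had 70.1 and 69.96 CPM with SCF and 105 and 139.7 CPM with IL-3 alone (log2 fold change -0.79 ± 0.18, adjusted p = 0.0111), and Stat5b, its near-identical paralog, had 68.1 and 56.7 CPM with SCF and 95.9 and 110.2 CPM with IL-3 alone (log2 fold change -0.71 ± 0.18, adjusted p = 0.022). Mitf, a master factor of mast cells and melanocytes, had 71.1 and 65.6 CPM in the SCF libraries, against 113 and 94.7 CPM in the IL-3 libraries (log2 fold change -0.61 ± 0.18, adjusted p = 0.0403). None of these overlapped between groups. Gata2, which mast cells need to keep their identity, had 620.2 and 473 CPM in the SCF libraries, against 749 and 775 CPM in the IL-3 libraries (log2 fold change -0.48 ± 0.17, adjusted p = 0.0847). Ikzf4, an Ikaros family factor, was among the 10 falls with the smallest p, at 20.5 and 16.4 CPM with SCF and 66.8 and 109 CPM with IL-3 alone (log2 fold change -2.22 ± 0.26, adjusted p = 6.25e-05). Stat5a (adjusted p = 0.0512) and Mitf (0.0894) missed the threshold without SCF replicate 1. Stat5a (adjusted p = 0.0784), Stat5b (0.191) and Mitf (0.225) missed the threshold without SCF replicate 2. Mitf (adjusted p = 0.225) missed the threshold without IL-3 replicate 1. Bhlhe40 (adjusted p = 0.0531), Stat5a (0.158), Stat5b (0.172) and Mitf (0.0834) missed the threshold without IL-3 replicate 2. Gata2 (adjusted p = 0.0426) passed it without SCF replicate 1. Ikzf4 stayed past the threshold whichever of the 4 libraries was left out. For lineage factors, the number lower was 1 without SCF replicate 2 and 0 without IL-3 replicate 2.

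Of 36 cytokines and chemokines only 17 could be tested, of which 4 rose (Tnf, Ccl7, Ccl3 and Mif) and 3 fell (Il4, Csf1 and Il1b). Tumour necrosis factor (Tnf) had 208 and 129.8 CPM in the SCF libraries, against 43.5 and 23.9 CPM in the IL-3 libraries (log2 fold change 2.30 ± 0.26, adjusted p = 5.74e-05). The monocyte chemokine Ccl7 had 184 and 151 CPM with SCF and 64.3 and 49.8 CPM with IL-3 alone (log2 fold change 1.54 ± 0.19, adjusted p = 1.18e-04). Il4, the cytokine of the type 2 response, was lower, at 20.02 and 11.98 CPM with SCF and 38.9 and 38.6 CPM with IL-3 alone (log2 fold change -1.25 ± 0.29, adjusted p = 0.0116), and the groups did not overlap in any of these. Il13, the second gene of the list, was too low to test. Il4 (adjusted p = 0.139) missed the threshold without SCF replicate 2. Il4 (adjusted p = 0.0556) missed the threshold without IL-3 replicate 1. Il4 (adjusted p = 0.0781) missed the threshold without IL-3 replicate 2. Tnf and Ccl7 stayed past the threshold whichever of the 4 libraries was left out. Cytokines gave 2 to 4 higher and 0 to 1 lower as each of the 4 libraries was left out, and every one of the 4 moved 1 or more of these counts by over 1.5 times.

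The falls held other abundant genes. The ferritin heavy chain Fth1, which stores iron, had 2801 and 2628 CPM in the SCF libraries, against 4205 and 4738 CPM in the IL-3 libraries (log2 fold change -0.72 ± 0.12, adjusted p = 0.00122); of 15 iron and haem genes it was the 1 that fell, and 2 rose. The prion protein Prnp had 1496 and 931 CPM in the SCF libraries, against 4572 and 4627 CPM in the IL-3 libraries (log2 fold change -1.92 ± 0.25, adjusted p = 1.65e-04). Itm2c, a type II membrane protein of the BRICHOS family, had 1700.0 and 1260.0 CPM with SCF and 2284 and 2673 CPM with IL-3 alone (log2 fold change -0.74 ± 0.15, adjusted p = 0.00651). Each was lower in both SCF libraries. Nampt, the rate-limiting enzyme of NAD salvage, had 669.8 and 517 CPM with SCF and 928 and 1205 CPM with IL-3 alone (log2 fold change -0.84 ± 0.16, adjusted p = 0.00413). Apolipoprotein E (Apoe) had 53.1 and 35.9 CPM in the SCF libraries, against 282 and 314 CPM in the IL-3 libraries (log2 fold change -2.72 ± 0.21, adjusted p = 1.44e-06). Timp3, an inhibitor of metalloproteinases, had 11.01 and 3.78 CPM with SCF and 72.5 and 114 CPM with IL-3 alone (log2 fold change -3.57 ± 0.39, adjusted p = 3.79e-05). For these 3 the SCF libraries were again both below the IL-3 libraries. The low-affinity neurotrophin receptor Ngfr had 24.5 and 17.02 CPM with SCF and 103 and 136 CPM with IL-3 alone (log2 fold change -2.49 ± 0.30, adjusted p = 1.01e-04). Cyp4a12a, a fatty acid omega-hydroxylase, had 59.1 and 25.2 CPM in the SCF libraries, against 409 and 577 CPM in the IL-3 libraries (log2 fold change -3.51 ± 0.28, adjusted p = 2.22e-06), and its near-identical neighbour Cyp4a12b had 15.02 and 7.56 CPM with SCF and 172 and 215 CPM with IL-3 alone (log2 fold change -4.04 ± 0.27, adjusted p = 3.49e-07), so reads of the pair cannot be fully told apart. Tmem176b, an ion channel of intracellular membranes, had 17.5 and 23.3 CPM with SCF and 79.3 and 156 CPM with IL-3 alone (log2 fold change -2.52 ± 0.29, adjusted p = 5.64e-05). Itm2c (adjusted p = 0.111) and Nampt (0.0771) missed the threshold without SCF replicate 2. Itm2c (adjusted p = 0.105) and Nampt (0.0911) missed the threshold without IL-3 replicate 2. Timp3 (log2 fold change -4.59), Cyp4a12a (-4.28) and Cyp4a12b (-4.66) moved by over 1.5 times in fold without SCF replicate 1. Fth1, Prnp, Apoe, Timp3, Ngfr, Cyp4a12a, Cyp4a12b and Tmem176b stayed past the threshold whichever of the 4 libraries was left out. Iron and haem gave 0 to 2 higher as each of the 4 libraries was left out, with moves of over 1.5 times without SCF replicate 1, SCF replicate 2 and IL-3 replicate 2.

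Among the rises with the smallest p were further genes outside the lists. Adam8, a surface metalloproteinase, had 121 and 180.3 CPM in the SCF libraries, against 24.9 and 32.3 CPM in the IL-3 libraries (log2 fold change 2.40 ± 0.25, adjusted p = 2.94e-05). Properdin (Cfp), which stabilises the alternative complement convertase, had 416 and 318 CPM with SCF and 122 and 93.3 CPM with IL-3 alone (log2 fold change 1.76 ± 0.18, adjusted p = 1.90e-05). Grm6, a metabotropic glutamate receptor, had 40.05 and 56.1 CPM with SCF and 3.63 and 4.91 CPM with IL-3 alone (log2 fold change 3.49 ± 0.33, adjusted p = 1.45e-05). In all 3 every SCF library was at least 2 times every IL-3 library. The organic anion transporter Slco2b1 had 92.1 and 133 CPM in the SCF libraries, against 26.9 and 11.9 CPM in the IL-3 libraries (log2 fold change 2.46 ± 0.27, adjusted p = 3.53e-05). Of genes with a large difference in CPM, granzyme B (Gzmb), a cytotoxic serine protease, had 1693 and 1832 CPM in the SCF libraries, against 1193 and 729.8 CPM in the IL-3 libraries (log2 fold change 0.87 ± 0.19, adjusted p = 0.00966), and the elastase inhibitor Serpinb1a had 2518 and 2609.5 CPM with SCF and 1515 and 1989.5 CPM with IL-3 alone (log2 fold change 0.55 ± 0.13, adjusted p = 0.0159). Gzmb (adjusted p = 0.0748) and Serpinb1a (0.0969) missed the threshold without SCF replicate 2. Serpinb1a (adjusted p = 0.14) missed the threshold without IL-3 replicate 1. Gzmb (adjusted p = 0.166) missed the threshold without IL-3 replicate 2. Slco2b1 (log2 fold change 3.22) moved by over 1.5 times in fold without IL-3 replicate 1. Adam8, Cfp, Grm6 and Slco2b1 stayed past the threshold whichever of the 4 libraries was left out.

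The remaining lists held few calls by number, and their shares lay on both sides of the 9.17% of all genes tested. The share called was 41.7% of mast cell identity markers, 40% of progenitor markers, 28.6% of polyamine genes and 13.5% of proteasome subunits. It was 5% of tRNA synthetases and 0% of antigen presentation genes. Of 37 proteasome subunits 5 rose, of 20 cytosolic aminoacyl-tRNA synthetases 1 rose, of 7 polyamine genes 2 rose, and of 7 heat shock genes 1 rose, with 0 lower in each. Of 19 genes of antigen presentation 0 were called, and of 11 interferon-stimulated genes 1 rose (Bst2) and 1 fell (Usp18). Of the 12 mast cell identity markers 3 rose (Cpa3, Tpsb2 and Srgn) and 2 fell (Slc18a2 and Mitf), and of 5 tested macrophage markers 1 fell (Cx3cr1). Cd68, which rose, was not in the macrophage list. Of 5 tested stem and progenitor markers 2 rose, Cd34 and Ly6a. Cd34, a sialomucin of progenitors that mast cells also carry, had 922 and 969 CPM in the SCF libraries, against 603 and 627 CPM in the IL-3 libraries (log2 fold change 0.62 ± 0.12, adjusted p = 0.00414), and Ly6a (Sca-1) had 1816 and 1926 CPM with SCF and 929 and 1384 CPM with IL-3 alone (log2 fold change 0.70 ± 0.16, adjusted p = 0.0111); neither overlapped between groups. Of 3 tested basophil markers 1 rose (Mcpt8) and 1 fell (Prss34), both at levels of few counts. Of 4 erythroid and platelet markers 1 fell (Gp1ba), and of 3 eosinophil and 2 dendritic cell markers 0 were called. Ly6a (adjusted p = 0.0784) missed the threshold without SCF replicate 2. Ly6a (adjusted p = 0.112) missed the threshold without IL-3 replicate 1. Cd34 stayed past the threshold whichever of the 4 libraries was left out. For the proteasome, the number higher was 0 without SCF replicate 2, 3 without IL-3 replicate 1 and 0 without IL-3 replicate 2. The proteasome gave 0 to 1 lower, tRNA synthetases 0 to 1 higher, polyamine genes 0 to 2 higher, heat shock genes 0 to 1 higher, antigen presentation 0 to 1 lower, interferon-stimulated genes 0 to 1 higher and 0 lower, mast cell markers 0 to 2 lower, basophil markers 0 higher and 0 lower, platelet markers 0 to 1 lower, and progenitor markers 1 to 2 higher as each of the 4 libraries was left out, and every one of the 4 moved 1 or more of these counts by over 1.5 times.

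SCF with TGF-β could be set against TGF-β alone in the other 6 libraries, whose labels give 72 h but no SCF dose, so that the dose may not be the same. They share no library with the SCF and IL-3 groups, though the spread was estimated over all 10 in 1 fit. There the SCF effect was the mean of SCF with 1 and 10 ng/mL TGF-β minus the mean of the single TGF-β libraries at those doses. That contrast called 2780 genes, 24.7% of those tested (13.3% higher, 11.4% lower). Of the 642 genes higher without TGF-β, 629 (98.0%) had the same sign with TGF-β and 523 (81.5%) were called higher there, which is 34.9% of the genes called higher in that contrast; of all tested genes 49.6% had a positive sign in it. Of the 389 lower genes, 376 (96.7%) had the same sign and 280 (72.0%) were called lower, 21.9% of its lower calls. The other way round were 3 of the higher and 2 of the lower genes. Satellite loci took 3.41% to 5.48% of gene counts in the libraries of SCF with TGF-β, against 14.5% and 7.29% with TGF-β alone. Reads aligned to more than 1 place made up 38.2% to 43.2% of all counted reads in the former, against 55.6% and 45.7% in the latter. As between SCF and IL-3, both shares were lower with SCF. The part of this in the shared signs was not tested. The medians of the lists in that contrast were 2.02 for mitotic cyclins and regulators, 2.05 for the kinetochore list, 1.25 for the replisome, 1.6 for sterol synthesis, 0.60 for cytosolic ribosomal proteins and -0.89 for FOXO targets. The difference between the contrasts passed the threshold for 33 genes, 0.293% of those tested. With edgeR it passed for 0 genes without IL-3 replicate 1, where 891 had an unadjusted p under 0.05, 9 without IL-3 replicate 2, 11 without SCF replicate 1 and, among the libraries of SCF with TGF-β, 19 without replicate 2 at 1 ng/mL and 17 and 9 without replicate 1 and replicate 2 at 10 ng/mL. The TGF-β alone groups had 1 library per dose, so neither could be left out.

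**Figure D5:**
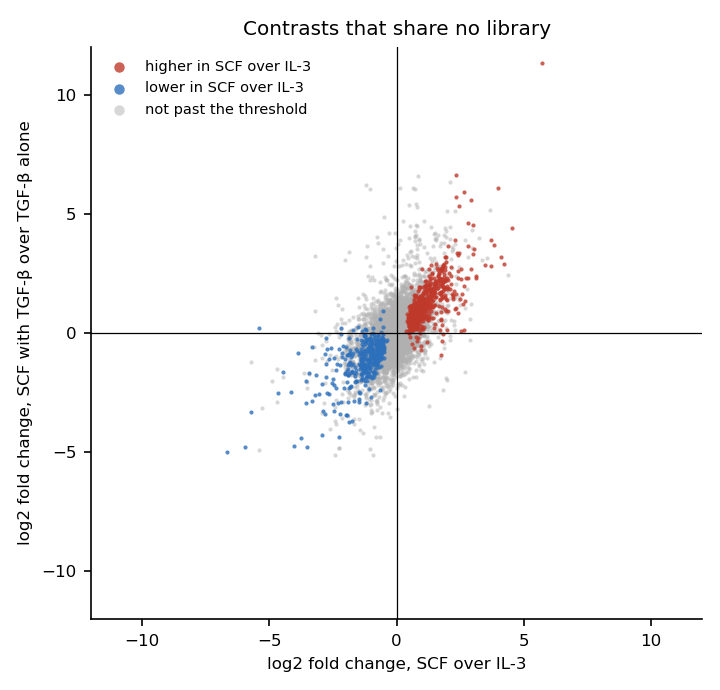
Log2 fold change of SCF over IL-3 (horizontal axis) against that of SCF with TGF-β over TGF-β alone (vertical axis) for all 11247 tested genes. Red points were higher and blue points lower in SCF over IL-3, and grey points did not pass the threshold. Of the red points 98.0% lie above 0 on the vertical axis, and of the blue points 96.7% lie below it.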

How the data were processed

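Libraries were made with Smart-seq2 and Nextera XT and sequenced in pairs on a NextSeq, per the labels' protocols; STAR, HTSeq, DESeq2 and the GRCm38 (mm10) build are named in the submitters' processing notes, with no versions or annotation release in the labels used here. The authors deposited 1 table of whole-number read counts per gene, without unique molecular identifiers or a strand mark, so overlapping genes and near-identical paralogs are uncertain. The 5 summary entries that name no gene, which held reads in no feature, ambiguous reads and reads aligned to more than 1 place, were left out of library sizes and tests. Symbols came from the GENCODE M21 annotation, for 49412 of 49671 identifiers. Gene counts ranged from 1237382 to 2323916 over the 10 libraries. The level given for 3 counts covers counting error only, whereas standard errors include the spread between libraries.

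The main test was edgeR 4.0.16 (R 4.3.3) with TMM scaling, its filter on low counts, 6 group means over all 10 libraries and 4 residual degrees of freedom, at an adjusted p under 0.05 over all tested genes. Fold changes are given with their standard errors. limma 3.58.1 and DESeq2 1.42.0 were alternatives. Only the edgeR fit was run on simulated counts, and the outcome is not reported here. The replicate numbers of the titles, which no label ties to a shared culture, were used as a block only in an alternative. The gene lists and their members were chosen with earlier results of these data known, so no list is independent evidence of its direction. Genes given with values were a subset of the first 2 symbols of each list, up to 4 called members of a list with a mean of at least 20 CPM, and the 10 called protein-coding genes in each direction with the largest difference in mean CPM or the smallest p. A few list members are counted but not reported by name here. Those given only by name in brackets were chosen after their values were seen. Promoter sequences came from RefSeq on GRCm38.p6, from 250 bases before to 50 after a start.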

Additional observations from a re-analysis of the deposited data

Results flagged for a closer look

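The log2 fold change after SCF differed between cells without and with TGF-β for 4 of the genes chosen by the naming rule, by edgeR's test of the difference itself. Abca1, the cholesterol exporter, had 13.0 and 8.19 CPM in the SCF libraries, against 3.63 and 2.11 CPM in the IL-3 libraries. In TGF-β it had 4.63 and 1.78 CPM with SCF at 1 ng/mL and 1.79 and 0.543 CPM at 10 ng/mL, against 11.9 and 10.1 CPM in the TGF-β libraries without SCF. Its log2 fold changes were 1.84 without and -2.38 with TGF-β, a difference of 4.22 (adjusted p = 0.037), and several of these levels were near 3 counts. Ctsd, a lysosomal protease, had log2 fold changes of 0.93 and 0.02, a difference of 0.917 (adjusted p = 0.016).

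Ly6a (Sca-1) had log2 fold changes of 0.70 without and -0.62 with TGF-β, a difference of 1.32 (adjusted p = 0.0131). In TGF-β its levels were 949 and 1088 CPM with SCF at 1 ng/mL and 1041 and 1171 CPM at 10 ng/mL, against 1697 and 1571 CPM without SCF, so the order of the groups was the opposite of that without TGF-β. The tryptase Tpsb2 had log2 fold changes of 1.07 and 0.24, a difference of 0.83 (adjusted p = 0.0497). The differences missed the threshold without IL-3 replicate 1 for all 4 genes (adjusted p between 0.0869 and 0.163). Without IL-3 replicate 2 or SCF replicate 1, Abca1 (0.125 and 0.149), Ctsd (0.0751 and 0.0686) and Tpsb2 (0.215 and 0.199) missed it, and the same 3 did without the second library that had SCF and TGF-β at 10 ng/mL (0.0648, 0.0564 and 0.148). Tpsb2 also missed it with the other scaling (0.0503), the filter of 10 CPM (0.0701), and without replicate 2 at 1 ng/mL (0.107) or replicate 1 at 10 ng/mL (0.084). TGF-β alone had 1 library at each dose.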

How the results depend on the processing

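Of the 1031 genes called by edgeR, 52 passed a test against a 2-fold threshold (32 higher, 20 lower), and DESeq2 called 439 (318 higher, 121 lower). Leaving out each library in turn gave 237 to 788 calls, with 158 to 477 higher and 79 to 311 lower; the lowest total came without IL-3 replicate 2. DESeq2 size factors (1030 calls), limma-voom (906), no filter (1228), a filter of 10 CPM (1024), a fit of the 4 libraries alone (1096), and fits without ribosomal RNA and satellite loci (1018) or TGF-β alone (1022) stayed within 1.5 times. With TGF-β, the 2780 calls were 1508 by DESeq2 and 2237 to 2738 with 1 library left out. The 33 differences between the contrasts were 0 against a 2-fold threshold (162 at an unadjusted p under 0.05; all 4 genes described above lost), 23 with DESeq2, 33 with limma-voom, 125 with no filter, 102 with the replicate block, and 0 to 30 with 1 library left out. Leaving out the libraries of SCF with TGF-β was added after the data were seen.

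The deviations of same-numbered SCF and IL-3 libraries had a correlation of -0.003, against 0.0144 to 0.231 between the other pairs of groups with 2 libraries. No label ties a number to a culture or day, so whether same-numbered libraries share one is not known. With the number as a replicate block, 1483 genes were called (896 higher, 587 lower).

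The groups of the 107 called genes given with values did not overlap, so leaving out 1 library could hardly reverse them. None of the 107 changed direction under any alternative. Of these, 83 did not pass the 2-fold threshold, and 10 were lost with DESeq2 (Acaca, Cdk1, Gzmb, Il4, Mitf, Mrgprb2, Pim1, Stat5b, Txnip and Vamp2, adjusted p between 0.073 and 0.225). Mitf was also lost with no filter (adjusted p = 0.0511). Reversals occurred in uncalled genes. With 1 library left out, log2 fold changes ran from -0.18 (without IL-3 replicate 1) to 0.24 for Acadm, from -0.040 (without SCF replicate 1) to 0.087 for Fcer1a, from -0.33 to 0.24 (without SCF replicate 2) for Hdc, and from -0.11 (without IL-3 replicate 1) to 0.25 for Itgb7. They ran from -1.28 to 0.21 (without SCF replicate 2) for Lamp1, from -0.012 (without IL-3 replicate 1) to 0.091 for Ms4a2, from -0.050 (without SCF replicate 2) to 0.11 for Ncl, and from -0.34 to 0.050 (without IL-3 replicate 1) for Nop56. Further reversals were 0.068 for Hdc and -0.041 for Ncl without IL-3 replicate 2, and -0.014 for Itgb7 and -0.0087 for Ms4a2 without SCF replicate 2. With no filter Hdc had 0.00575. The causes were not tested. DESeq2 moved 42 of 108 list counts by over 1.5 times, all to fewer calls, the replicate block 24, all to more, limma-voom 5 and no filter 12. Among these, DESeq2 gave 4 replisome, 15 kinetochore, 9 mitotic, 28 cytosolic ribosomal, 4 respiratory chain and 4 fatty acid synthesis genes and 1 proteasome gene higher, and 2 lineage factors, 1 STAT5 target and 0 cytokines lower; the block gave 17 respiratory chain genes higher and 11 lineage factors lower. Of the list medians, 692 stayed within the spread and 64 moved beyond it.

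With 2 libraries a group and 1237382 to 2323916 gene counts a library, genes of few counts were removed by the filter, and a gene that missed the threshold is not shown to be unchanged.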
